A study of Drosophila melanogaster with 7 samples.

Results

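WOC is a zinc-finger protein of Drosophila melanogaster, known from mutants that fail to develop for lack of ecdysone and from a role in protecting chromosome ends. In polytene chromosomes it is known to lie at many euchromatic sites together with HP1c, an HP1 protein found in euchromatin, and with ROW, a related zinc-finger protein. Dsk2, a ubiquilin that binds ubiquitin, associates with HP1c. Z4 has zinc fingers too and is known from the open interbands of polytene chromosomes.

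The WOC list came from chromatin immunoprecipitation and sequencing in S2 cells, a line derived from embryos, with a rabbit antibody against WOC. It was described here with every one of its 5849 intervals, out of 29798 in the 5 lists of the series. The other lists were ROW (8999 intervals), Z4 (7491), Dsk2 (4748) and HP1c (2711), from the same line with rabbit antibodies, or a guinea pig antibody for Z4, and the labels name no treatment. WOC, ROW and Z4 shared 1 input (chromatin without immunoprecipitation), and Dsk2 and HP1c shared the other, so a difference between a protein of one group and a protein of the other cannot be told apart from a difference between inputs.

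Each protein had 1 library, and the lists hold positions without a score, a height or a read number, so the depth is unknown. No list can show how strongly a site was bound, nor whether the antibody label is right. Intervals given below are exact (Clopper-Pearson) 95% confidence intervals for shares of regions. They cover counting error only and treat regions as independent, and no replicate and no test across libraries was available. Positions are in dm3 as deposited, without gene names, because the annotation at hand is of another build.

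WOC regions were mostly short. The middle 50% of widths ran from 88 to 352 bp around a median of 205 bp, and 5% were wider than 666 bp. Width classes below include their lower and not their upper limit. Regions of 200 to 400 bp were the most frequent class, with 1854 regions (31.7%), followed by 1262 regions of 100 to 200 bp (21.6%). At the narrow end, 982 regions were under 50 bp (16.8%, interval 15.8 to 17.8%), and 276 were no more than 10 bp wide. At the wide end, 971 regions measured 400 to 800 bp and 154 measured 800 bp or more (2.63%).

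The number of regions and the length they covered were thus carried by different classes. Regions under 50 bp made up 1.51% of the covered bases, and the 154 widest made up 11.3%. The 400 to 800 bp class covered nearly as many bases (34.8%) as the 200 to 400 bp class (36.5%) with fewer regions. Dsk2 had a similar make-up, with 18.4% of regions under 50 bp and 4.34% at 800 bp or more, whereas 17.9% of ROW and 12.6% of Z4 regions were 800 bp or wider.

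The 10 widest WOC regions ranged from 1625 to 2125 bp, and 5 of them lay on 2L. The widest (2L, 22247802 to 22249926) overlapped 2 Dsk2, 2 Z4 and 1 ROW region and no HP1c region, the nearest being 7900 bp away. Dsk2 regions covered 69.5% of it, Z4 regions 45.6% and the ROW region 22.2%. The third widest (1839 bp) lay on the same arm, from 22429287 to 22431125, and was covered entirely by 1 Z4 region. The second widest (3L, 2417408 to 2419406, 1999 bp) and the other 8 each overlapped all 4 proteins. In 5 of the 10, Dsk2 regions covered more than 98% of the WOC region, as on 2L from 14022096 to 14023770, which lay wholly inside 1 Dsk2 region. HP1c regions covered up to 21.0% of the width in 9 of the 10 and 57.1% in the other (2L, 13073843 to 13075477).

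Width separated WOC regions by the company they kept. The share with a Dsk2 region rose from 14.0% (137 of 982) below 50 bp to 43.3% at 50 to 100 bp, 70.4% at 100 to 200 bp, 92.7% at 200 to 400 bp and 98.0% at 400 to 800 bp. All 154 regions of 800 bp or more overlapped Dsk2 (interval 97.6 to 100%). Up to the 400 to 800 bp class, the intervals of neighbouring classes did not overlap. Over all widths the share was 70.5%.

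Z4 was the most frequent of the 4 at the narrowest regions. Of those under 50 bp, 38.5% (35.4 to 41.6%) overlapped a Z4 region, which is more than overlapped Dsk2. The share was 40.4% at 50 to 100 bp, 52.5% at 100 to 200 bp, 71.95% at 200 to 400 bp, 85.8% at 400 to 800 bp and 90.9% above that. ROW shares ran from 20.8% in the narrowest class through 42.9% at 200 to 400 bp to 54.1% at 400 to 800 bp and 85.7% at 800 bp or more. HP1c shares had the steepest relative rise. They were 2.75% (27 of 982) below 50 bp, 13.9% at 100 to 200 bp, 33.8% at 200 to 400 bp, 52.7% at 400 to 800 bp and 84.4% in the widest class. The lists themselves covered unequal parts of the sequence between the outermost positions of all arms. Z4 covered 1.98% of it, ROW 2.70%, Dsk2 0.81% and HP1c 0.29%. The overlap shares were not corrected for this coverage, so their order does not show a preference.

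**Figure D1:**
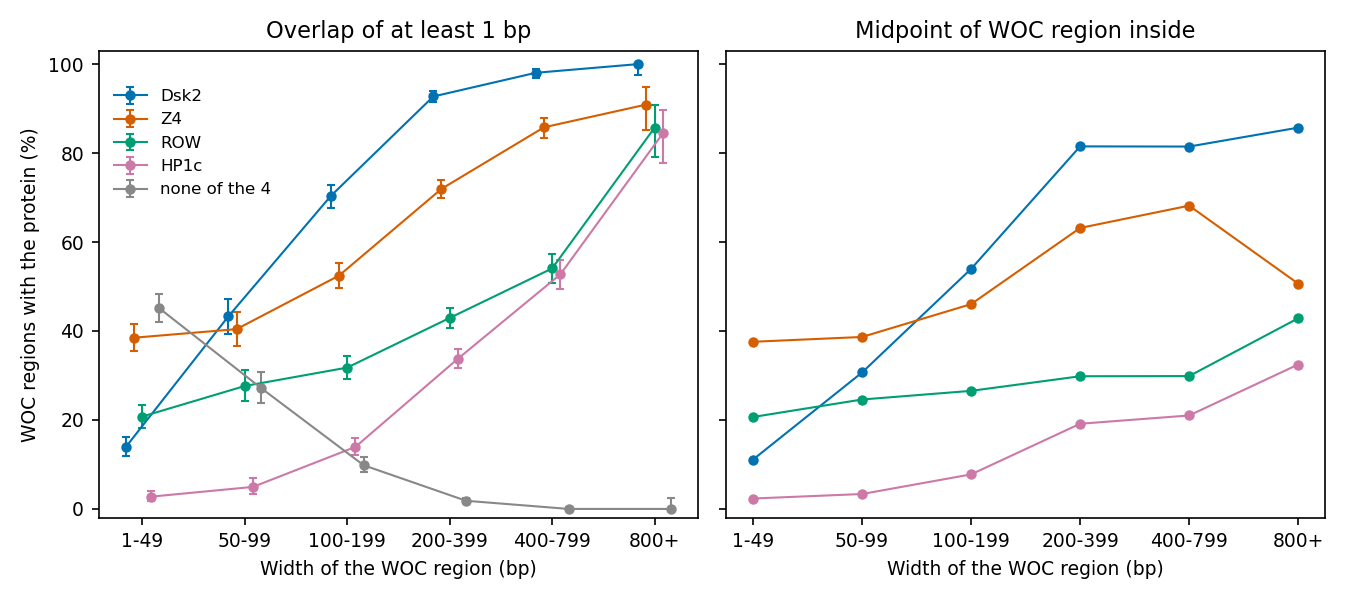
Share of WOC regions (%, vertical axis) with each other protein, or with none of the 4, by width class of the WOC region (bp, horizontal axis). Left, any overlap, with bars for exact 95% intervals over regions. Right, WOC regions whose midpoint lies inside a region of the other list. Dsk2 goes from 14.0% to 100% on the left and from 11.1% to 85.7% on the right, and Z4 falls to 50.6% in the widest class on the right.

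A wide region has more room to touch another, so the same classes were read by whether the WOC midpoint lay inside the other region. Dsk2 then rose from 11.1% in the narrowest class to 81.5% at 200 to 400 bp and stayed at 81.5% at 400 to 800 bp. Z4 rose from 37.6% to 68.2% at 400 to 800 bp and was 50.6% in the widest class. Up to 800 bp ROW moved least, from 20.7% below 50 bp to 29.8% at 200 to 400 bp, 29.9% at 400 to 800 bp and 42.9% above. HP1c went from 2.34% to 32.5%. Among regions of 800 bp or more, several regions of another list in 1 WOC region were common. In that class 29.9% held at least 2 Z4 regions, 25.3% at least 2 HP1c regions, 24.7% at least 2 ROW regions and 12.3% at least 2 Dsk2 regions.

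Regions without any of the 4 proteins were mostly narrow. They numbered 772 in all, of which 444 were under 50 bp (45.2% of that class), 170 were 50 to 100 bp (27.2%), 124 were 100 to 200 bp (9.83%) and 34 were 200 to 400 bp (1.83%). Taking 3 counts as the limit that a count of 0 allows, none of the 971 regions of 400 to 800 bp was alone, for a share of up to 0.309%, and none of the 154 widest was, for a share of up to 1.95%. The widest lone region of all (3L, 3384663 to 3385045, 383 bp) had ROW 732 bp and Z4 2923 bp away. That of the 100 to 200 bp class (2L, 12542081 to 12542278, 198 bp) had HP1c 918 bp and ROW 1502 bp away. That of the 50 to 100 bp class (2L, 13079225 to 13079323) had a ROW region at 28 bp, and the narrowest class was represented by 2R, 13364508 to 13364556, with a Dsk2 region at 205 bp.

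The mean number of other proteins per WOC region grew with width from 0.76 below 50 bp to 1.69 at 100 to 200 bp, 2.91 at 400 to 800 bp and 3.61 at 800 bp or more. Over the whole list 1334 regions had 1 other protein, 1799 had 2, 1254 had 3 and 690 had all 4. Of the 16 possible combinations, Dsk2 with Z4 was the most frequent (958 regions, 16.4%, interval 15.4 to 17.4%). Next came WOC alone (13.2%), Dsk2 with Z4 and ROW (761 regions, 13.01%), Dsk2 alone (705, 12.1%) and all 4 (11.8%).

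Median width differed between combinations with and without Dsk2. Median widths were 156 bp with Dsk2 alone, 260 bp with Dsk2 and Z4, 360 bp with Dsk2, Z4 and HP1c, and 436.5 bp with all 4. Without Dsk2, they were 56 bp with Z4 alone (454 regions), 54.5 bp with ROW alone (170 regions) and 90 bp with Z4 and ROW (275 regions). The 14 regions with Z4, ROW and HP1c had the largest median without Dsk2, 159 bp, which was above that with Dsk2 alone. Single regions were longer, such as 479 bp with Z4 alone on 2R (20061899 to 20062377) and 710 bp with Z4 and ROW on X (16492584 to 16493293).

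Of the 1502 WOC regions with HP1c, 1445 had Dsk2 as well. Of the 4121 WOC regions with Dsk2, 35.1% (33.6 to 36.5%) had HP1c, against 3.30% (57 of 1728, 2.51 to 4.25%) of those without. HP1c without Dsk2, Z4 or ROW occurred at 5 WOC regions, the widest of 108 bp (X, 3267043 to 3267150), and HP1c with ROW alone at 1 (2L, 16534310 to 16534316, 7 bp). The share was higher with Dsk2 in each of the 5 width classes that had regions of both kinds, with overlapping intervals at 50 to 100 bp (7.38% and 3.10%). At 200 to 400 bp the shares were 36.0% with and 5.93% without Dsk2, and below 50 bp they were 10.2% and 1.54%. At 400 to 800 bp they were 53.5% with Dsk2 and 15.8% (3 of 19) without, the latter with an interval from 3.38 to 39.6%. Dsk2 and HP1c shared an input, so their joint presence cannot be told apart from an effect of that input. Z4 and ROW had the other input.

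Z4 and ROW were also more frequent where Dsk2 was present over all widths (68.4% against 45.1% for Z4, 43.0% against 26.6% for ROW). Within width classes, the intervals with and without Dsk2 overlapped throughout for both proteins. At 100 to 200 bp, Z4 was at 50.7% of WOC regions with Dsk2 and 56.7% of those without. ROW was at 31.9% and 31.6% in that class, and at 42.6% and 47.4% at 200 to 400 bp. Z4 at 200 to 400 bp was 72.6% (70.4 to 74.7%) with Dsk2 and 63.7% (54.99 to 71.8%) without. Overlapping intervals do not show that the groups are alike.

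Where 1 WOC region met exactly 1 region of another list and the reverse, the 2 could be laid over each other. This held for 3942 WOC regions with Dsk2. Their midpoints lay a median of 28 bp apart and 71.3% were within 50 bp. The Dsk2 region was about as wide (median ratio of Dsk2 to WOC width 0.96) and the widths went together across regions (Spearman rho 0.78, a description over pairs from 2 libraries). For 3253 pairs with Z4 the median distance was 58 bp, the Z4 region was 1.85 times as wide at the median, and 63.9% of the WOC regions lay wholly inside it. For 1416 pairs with HP1c the order was reversed, with the HP1c region wholly inside the WOC region in 66.1% and a median ratio of 0.40.

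ROW stood apart in position. In 1709 pairs the midpoints were a median of 174.5 bp apart, 20.4% were within 50 bp, and the widths showed almost no correlation across pairs (rho -0.04). ROW regions were 2.23 times as wide as their WOC region at the median. No list lay mostly to one side of WOC. The other midpoint had the higher position in 48.8% of pairs for Dsk2 and Z4, 50.8% for ROW and 46.8% for HP1c. Whether the HP1c share differed from an even split was not tested. Positions carry no direction of transcription here.

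WOC regions without a ROW overlap were nevertheless often close to one. Of the 3618 such regions the median distance to the nearest ROW region was 413 bp and 53.1% had one within 500 bp. The corresponding medians were 2223 bp for the 2249 WOC regions without Z4, 2845.5 bp for the 1728 without Dsk2 and 7777.5 bp for those without HP1c. Allowing 250 bp between regions therefore raised the ROW share from 38.1% to 64.3%, close to the 65.8% of Z4, whereas Dsk2 rose from 70.5% to 73.8%. Distances depend on how many regions a list holds, and ROW had the most.

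**Figure D2:**
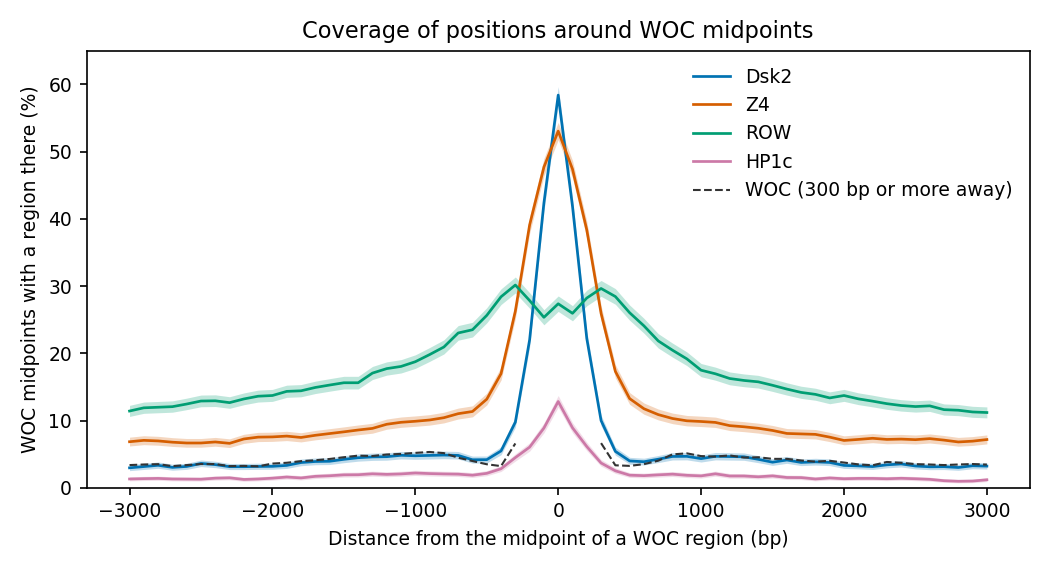
Share of the 5849 WOC midpoints (%, vertical axis) for which a position at the given distance (bp, horizontal axis, from 3000 bp on one side to 3000 bp on the other) lies inside a region of each list, with exact 95% intervals shaded. The dashed line is the WOC list itself from 300 bp outward. Dsk2 and Z4 peak at the midpoint (58.4% and 53.1%), while ROW is 27.4% at the midpoint, lower at 100 bp and highest at 300 bp on both sides (30.2% and 29.6%).

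Around WOC midpoints, Dsk2 coverage dropped from 58.4% to 5.49% at 400 bp and 2.97% at 3000 bp to the left. Z4 dropped from 53.1% to 17.0% and 6.86%, and HP1c from 12.8% to 2.84% and 1.32%. The WOC list itself covered 3.23% of positions 400 bp to the left, 5.16% at 800 bp and 3.39% at 3000 bp, the region's own flanks included where it was wide enough. Below 200 bp the list covered 1.22% at 400 bp and 5.37% at 800 bp, and at 200 bp or more 5.17% and 4.97%. The 5.17% reflected the width of the regions themselves, since neighbours in the list were at least 301 bp apart. This shortest distance limits the values at 400 bp in both groups, so they cannot compare how often neighbours lay there. ROW coverage was 27.4% at the midpoint, 25.4% and 26.0% at 100 bp to the left and right, and 30.2% and 29.6% at 300 bp. Split by width, ROW coverage around WOC regions of 200 bp or more was 30.5% at the midpoint, 35.6% at 400 bp to the left and 35.8% to the right. Around narrower WOC regions it was 24.1% at the midpoint and 20.9% on both sides.

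Along the arms, WOC regions were unevenly spaced. The median distance from the end of one region to the start of the next was 6033.5 bp, while the mean was 27490 bp. These values include heterochromatic and unplaced sequence (Het, U and Uextra). On the large arms alone, the mean lay between 19363 bp (2R) and 22055 bp (3L), and the median between 5350.5 bp (X) and 6827 bp (2R). Of the 5836 distances, 14.6% (13.7 to 15.5%) were under 1 kb, 26.0% under 2 kb and 24.6% over 20 kb, and 320 were over 100 kb. The shortest was 301 bp, as in each of the other lists, so closer calls are not represented. Dsk2 had nearly the same share of distances under 1 kb (14.3%, 13.3 to 15.3%) at a longer median of 7536 bp, while Z4 (24.96%) and ROW (37.3%) had more.

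Midpoints of neighbouring WOC regions were most often 800 up to 900 bp apart, by a small margin. That 100 bp bin held 135 pairs, against 119 each from 700 up to 800 bp and from 1000 up to 1100 bp. The 7 bins from 600 to 1299 bp held 768 pairs, against 487 from 1300 to 1999 bp and 333 from 2000 to 2699 bp. Only 141 pairs were closer than 600 bp, a range limited by the shortest distance and by the widths themselves. The fullest bins were 700 up to 800 bp and 1000 up to 1100 bp for Dsk2, with 91 pairs each, 600 up to 700 bp for ROW, 800 up to 900 bp for Z4 and 500 up to 600 bp for HP1c.

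**Figure D3:**
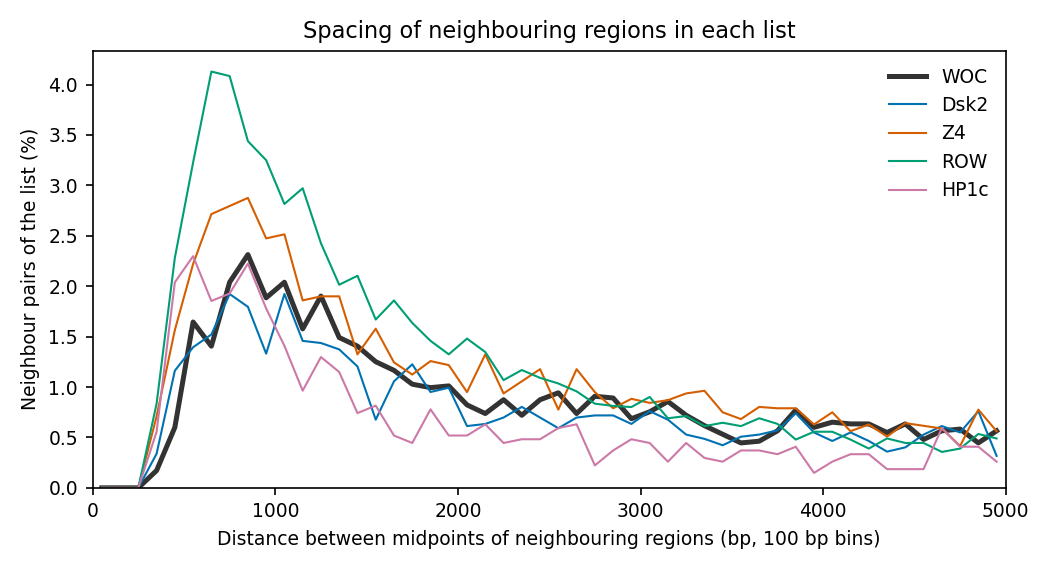
Distances between midpoints of neighbouring regions of the same list (bp, horizontal axis, in 100 bp bins up to 5000 bp) as a share of all neighbour pairs of that list (%, vertical axis). The WOC line (thick) is highest from 800 up to 900 bp, with 135 pairs, and falls slowly beyond 1300 bp.

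Chains of WOC regions no more than 2 kb apart were taken as clusters. By this rule 3293 regions (56.3%) were single, 734 chains were pairs, and 307 clusters held 3 or more, with 1088 regions in all (18.6%, 17.6 to 19.6%). Of the clusters, 209 held 3, 64 held 4 and 34 held 5 or more, and their median span was 2976 bp. The limit set these shares, which were 7.33% with 1 kb and 43.0% with 5 kb. The X chromosome had the largest share in clusters of 3 or more (22.4%, 20.02 to 24.99%) and 3L the smallest of the large arms (16.5%, 14.3 to 18.8%).

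The cluster with the most WOC regions lay on X from 7586052 to 7603864 and held 16 in 17813 bp. They were between 19 and 1389 bp wide, and 15 overlapped ROW, 13 Z4, 12 Dsk2 and 8 HP1c. The 8 with HP1c were the 8 widest, from 278 to 1389 bp, and each also had Dsk2, Z4 and ROW. The second cluster, on 3R from 25581134 to 25591004, held 12 WOC regions in 9871 bp. Of these 10 overlapped Dsk2, 10 ROW, 5 HP1c and only 4 Z4. The third, on X from 17185121 to 17196371, held 11 regions, all with ROW, 8 with Dsk2 and 2 with HP1c, among them the eighth widest WOC region (1655 bp, 17192113 to 17193767). That region lay wholly inside 1 ROW region and overlapped 3 Z4 regions. The span of the cluster held 3 ROW and 13 Dsk2 regions.

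The fourth and the fifth cluster held 7 WOC regions each. The fourth, on X from 14840099 to 14849366, had Dsk2, Z4, ROW and HP1c at 4 of its regions each and a median width of 129 bp. The fifth lay on 2L from 486030 to 494914, with Z4 at 6 regions, Dsk2 and ROW at 5 and HP1c at 2. Across all 307 clusters, every member had Dsk2 in 101 clusters, Z4 in 73, ROW in 58 and HP1c in 7, and no member had Dsk2 in 6, Z4 in 53, ROW in 65 and HP1c in 107.

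Closely spaced WOC regions carried ROW more often. Where the nearest other WOC region was under 1 kb away, 49.6% (47.0 to 52.1%) overlapped ROW. The share was 38.1% at 1 to 5 kb, 31.4% at 5 to 20 kb and 20.9% (17.3 to 24.8%) at 20 kb or more. Dsk2 changed less, from 73.1% (70.8 to 75.3%) to 71.1%, 68.4% and 64.3% (59.8 to 68.7%). Z4 was highest in between, with 55.98%, 63.4%, 66.2% and 56.8%, and HP1c went from 29.5% to 23.8%. WOC regions without any other protein made up 10.3% of the closest group and 19.6% of the most isolated.

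**Figure D4:**
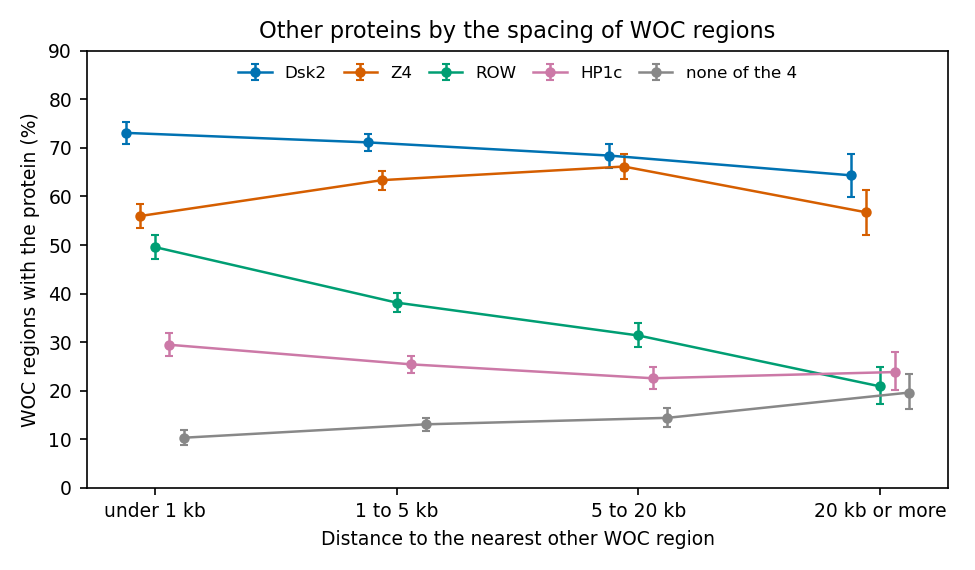
Share of WOC regions (%, vertical axis) with each other protein, or with none of the 4, by distance to the nearest other WOC region (horizontal axis), with exact 95% intervals over regions. ROW falls from 49.6% to 20.9% with distance, Dsk2 from 73.1% to 64.3%, and Z4 is highest at 5 to 20 kb (66.2%).

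Median widths of these groups were 209, 208.5, 202.5 and 177.5 bp. The ROW difference was present in narrow and in wide WOC regions. Below 200 bp it went from 39.8% in the closest group to 12.2% in the most isolated, and at 200 bp or more from 58.5% to 31.6%. By midpoints it went from 36.4% to 10.3% and from 41.0% to 20.3%. Dsk2 went from 49.7% (46.0 to 53.3%) to 38.5% (32.6 to 44.7%) below 200 bp, and was at 94.6% in the closest and 96.2% in the most isolated group at 200 bp or more. Local numbers of regions rose with those of WOC in all 4 lists. From 100 kb windows with 1 or 2 WOC regions to windows with 10 or more, the mean number per window went from 2.55 to 18.4 for ROW, 1.21 to 10.3 for Dsk2, 2.396 to 15.02 for Z4 and 0.85 to 6.04 for HP1c. Their part in the overlap was not tested.

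Neighbouring WOC regions under 1 kb apart tended to share their ROW and Z4 state. Among these 853 pairs, the neighbour of a WOC region with ROW had ROW in 71.2% of cases, and the neighbour of one without had it in 30.4%. For Z4 the values were 70.2% and 38.3%. For Dsk2 they were 73.1% and 74.7%, and for HP1c 38.2% and 27.4%. At 20 kb or more the ROW values were 35.4% and 26.0%, and those of Z4 were 64.1% and 53.6%, so part of the Z4 difference remained between distant neighbours. A single ROW or Z4 region can cover both neighbours. Of ROW regions, 155 overlapped 2 WOC regions and 47 overlapped 3 or more. The numbers were 112 and 18 for Z4 regions, and 48 and 5 for Dsk2 regions. The ROW region with the most WOC regions held 6 (3R, 25597985 to 25609776, 11792 bp).

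WOC density differed little between the large arms. It was 51.0 regions per Mb on 2R (48.0 to 54.1), 49.96 on X (47.1 to 53.0), 48.1 on 3R (45.6 to 50.8), 46.6 on 2L (43.9 to 49.5) and 44.9 on 3L (42.3 to 47.6), with Poisson intervals and arm ends set to the outermost position of any list. The interval of 3L lay below that of 2R and overlapped those of the other 3. Poisson intervals treat regions as independent, whereas the number per 100 kb window had a variance 3.82 times its mean. The intervals can therefore be too narrow, and a difference between 3L and 2R was not tested. Covered length gave another order, with 13.7 bp per kb on 2R, 12.7 on 3R, 12.0 on 2L, 11.2 on X and 11.1 on 3L.

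On X the WOC regions were narrower than on the other large arms. Their median width was 169 bp, against 213 bp for the 4588 regions of 2L, 2R, 3L and 3R, and the medians of these arms ranged from 198 to 223 bp. Regions of 400 bp or more made up 14.8% on X and between 19.0% and 21.9% on the other large arms. Z4 was at 51.4% (48.4 to 54.4%) of X regions and 63.2% (61.8 to 64.6%) of autosomal ones, and ROW at 29.5% (26.8 to 32.3%) and 40.5% (39.1 to 41.9%). Dsk2 was at 68.8% (66.0 to 71.5%) and 70.7% (69.4 to 72.04%), with overlapping intervals, as were those of HP1c (23.6% and 26.3%).

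Within the classes of intermediate width the intervals of both proteins were separate as well. Among WOC regions of 200 to 400 bp, Z4 was at 59.9% (54.3 to 65.3%) on X and 73.7% (71.4 to 75.9%) on the autosomal arms, and ROW at 35.1% (29.9 to 40.6%) and 44.8% (42.2 to 47.4%). At 400 to 800 bp Z4 was at 72.9% (64.7 to 80.02%) and 87.6% (85.1 to 89.8%), and ROW at 42.9% (34.5 to 51.5%) and 56.3% (52.8 to 59.8%). Below 200 bp the Z4 intervals of X and the autosomal arms overlapped, and so did those of the 26 X regions of 800 bp or more. HP1c differed the other way at 100 to 200 bp, with 19.4% (14.9 to 24.6%) on X and 12.3% (10.3 to 14.5%) on the autosomal arms. In the other width classes the HP1c intervals overlapped, and those of Dsk2 overlapped in every class. Dsk2 without Z4, ROW or HP1c was the combination with the largest X share among those with over 100 WOC regions, 29.1% of its 705 regions, while 11.2% of those with Dsk2, Z4 and ROW lay on X. The Z4 and ROW lists themselves were thinner on X, with 16.4% and 15.7% of their regions there, against 19.1% of WOC regions.

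Chromosome 4, a small autosome rich in heterochromatin, held 54 WOC regions. Of these 49 overlapped Z4 (90.7%, 79.7 to 96.9%), 48 Dsk2 (88.9%, 77.4 to 95.8%), 13 ROW (24.1%, 13.5 to 37.6%) and 7 HP1c (12.96%, 5.37 to 24.9%), and 1 was alone. Their median width was 250 bp and their density 44.5 per Mb.

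Within the large arms, density varied over a wider range than between them. Each arm was divided into 10 equal bins in the order of its positions. On 3L the second bin held 167 WOC regions (68.2 per Mb) and the last bin, at the end nearest the centromere, held 35 (14.3 per Mb). On 2L the lowest was the seventh bin, from 13788496 to 16083472, with 52 regions (22.7 per Mb), and the fourth held 146 (63.6 per Mb). On X densities ran from 34.8 per Mb in the last bin to 65.6 per Mb in the sixth, and on 3R from 39.5 to 58.8 per Mb. On 2R the range was 31.7 to 63.0 per Mb. The sparsest bins of 2L and 3L had median widths of 280.5 and 293 bp, but width did not follow density in general. The sixth bin of 3L (29.4 per Mb) had a median of 194.5 bp and its ninth (47.4 per Mb) one of 290 bp.

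**Figure D5:**
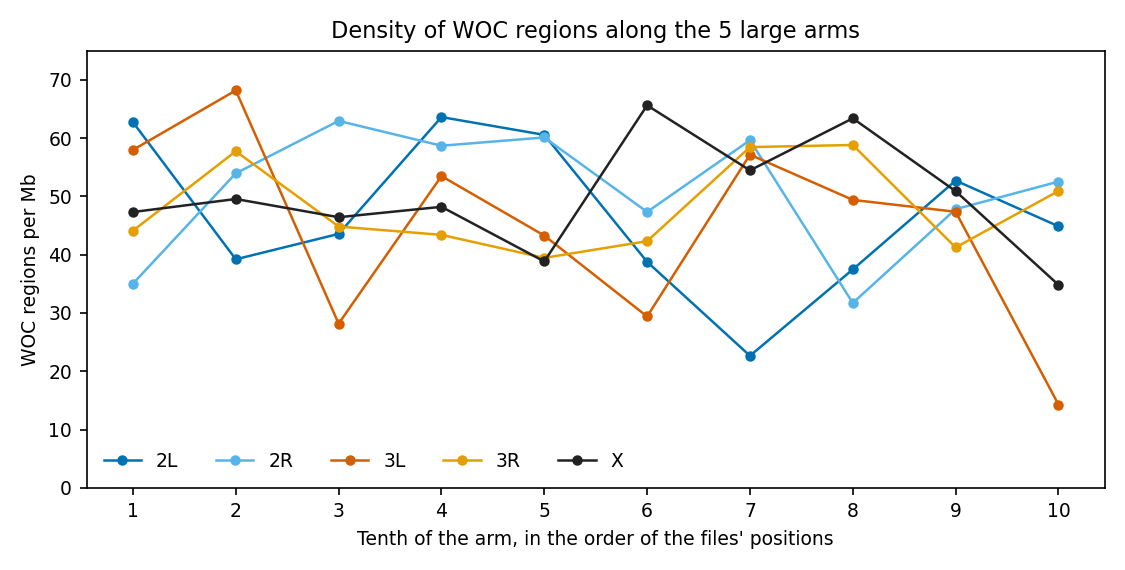
WOC regions per Mb (vertical axis) in 10 equal bins of each of the 5 large arms (horizontal axis, in the order of the files' positions). Each line is 1 arm. The last bin of 3L has 14.3 per Mb and the second has 68.2 per Mb.

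In 100 kb windows the large arms held a mean of 4.79 and a median of 4 WOC regions, and the variance of the number was 3.82 times the mean. Of 1192 windows 202 (16.9%) held no WOC region and 164 held 10 or more. The 119 fullest windows contained 29.1% of the regions. Empty windows were most frequent on 2L (22.2%) and least on 2R (12.3%). The 202 empty windows held few regions of any list. Dsk2 had 15 regions in 13 of them, while 50 held Z4, 41 held ROW and 26 held HP1c regions. Their mean number per window was 0.074 for Dsk2, 0.44 for Z4, 0.46 for ROW and 0.15 for HP1c. Over all 1192 windows the means were 3.87, 6.14, 7.42 and 2.24.

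The densest window lay on 2L from 400001 to 500000 and held 23 WOC regions, 18 of them with Dsk2, 16 with Z4, 14 with ROW and 6 with HP1c. It included the fifth of the clusters above. The second, on X from 13200001 to 13300000, held 22, of which 16 had Dsk2 and 5 had ROW. The third, on 2L from 10200001 to 10300000, held 21, with Z4 at 19 and ROW at 6. The fourth (2R, 9800001 to 9900000) and the fifth (3L, 2500001 to 2600000) held 20 each, as did a pair of windows on X. In the 3L window 14 of the 20 WOC regions overlapped ROW, against 8 of 20 in the 2R window. The 2R window nevertheless held more ROW regions, 31 against 18. Across the 1192 windows, the number of WOC regions rose and fell with that of Dsk2 (Spearman rho 0.94), ROW (0.87), Z4 (0.87) and HP1c (0.75), a description over windows that share arms and libraries.

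The share of WOC regions with ROW also rose with the number of WOC regions in the window, from 25.2% in windows with 1 or 2 to 33.2% with 3 to 5, 35.2% with 6 to 9 and 46.5% with 10 or more. HP1c rose as well, with 21.3%, 24.1%, 24.3% and 28.9%. Z4 did not follow, with 61.6%, 60.7%, 60.2% and 61.6%, and Dsk2 was 64.6% in the sparsest group and between 70.2% and 71.1% in the others. The mean width of the WOC regions was between 242 and 258 bp in all 4 groups.

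On the 5 large arms, the longest stretch without a WOC region was 490 kb on 2L (16889222 to 17378926), where 6 Z4 and 5 ROW but no Dsk2 or HP1c regions lay. On X it was 434 kb (11923206 to 12357153), on 2R 409 kb (2109188 to 2517879), on 3L 349 kb (13506525 to 13855619) and on 3R 337 kb (23814726 to 24152123). That on 2R held 8 ROW, 6 Z4, 4 HP1c and 2 Dsk2 regions, and that on X held 1 ROW, 2 Z4, 2 Dsk2 and 1 HP1c region.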

How the data were processed

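Chromatin immunoprecipitation from S2 cells gave 1 library for each of 5 proteins, with 2 inputs. The submitters' processing notes name dm3 as the build and, among the tools, Bowtie 0.12.5, FastQC 0.9.3 and CASAVA 1.8. Per the series' design text, the authors called regions against input. The sources used here give neither the caller nor its threshold. The shortest distance of 301 bp between regions shows only that closer calls were absent from the deposited lists. The deposited values are start and end positions (bp), with no score. Some regions start and end at 1 position, so width was end minus start plus 1. How the number and width of regions depend on depth was not tested.

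Overlap meant at least 1 bp. Distances ran from the end of a region to the start of the next on the same arm, including the unplaced U and Uextra, whose pieces are joined artificially. Windows were tiled from position 1 and regions placed by midpoint. Named were the 10 widest regions, the 5 largest clusters, the 5 densest windows, the longest stretch without WOC per arm and the widest region of each class with lone regions and of each of the 16 combinations, not all of which are printed. The subject and the lists were chosen with earlier results of these data known. Interval functions were tested on simulated data and overlap counts with bedtools. Tables were made in Python 3.11.15 with pandas 2.3.3 and NumPy 2.4.6, intervals with SciPy 1.17.1 and figures with matplotlib 3.10.9. The closing section gives the effect of other settings. Regions were assigned to no gene and no sequence is shown, since no dm3 genome or annotation was used here.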

Additional observations from a re-analysis of the deposited data

How the results depend on the processing

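Of 79 values recomputed for 12 results, 27 stayed within the 95% interval of the reported value and 52 did not. Excluding end positions or keeping only the 5 large arms (for the results not already limited to them) moved no value beyond its interval. The cause of the other shifts was not tested beyond what each setting changes by construction. No paired analysis was possible because each protein had 1 library, and for the same reason no replicate could be left out. Depth is unknown.

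With regions of at least 50 bp in every list, the median width was 249 bp and none were narrower (0%). The median distance was 7146.5 bp, 12.6% of distances were under 1 kb, 14.3% of regions were in clusters of 3 or more, and variance over mean in windows was 3.41. Dsk2 was at 73.7%, HP1c at 22.1% and none of the 4 at 10.2%. With the 50% widest regions of every list these were 352 bp, 0%, 13508 bp, 8.38%, 7.63%, 2.56, 74.0%, 24.5% and 8.99%, with Z4 at 59.1%, ROW at 39.7% and a ratio of the densest to the sparsest large arm of 1.27 in place of 1.14. Joining regions up to 500 bp apart gave a median distance of 6736.5 bp, 9.73% under 1 kb and 13.4% in clusters. Cluster limits of 500 bp, 1 kb and 5 kb gave 1.76%, 7.33% and 43.0%. Windows of 50 and 200 kb gave 3.07 and 4.50.

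By midpoints inside, the shares were 58.4% (Dsk2), 53.1% (Z4), 27.4% (ROW), 12.8% (HP1c) and 19.1% (none). With at least 50% of the WOC region covered they were 55.04%, 51.3%, 26.3%, 9.10% and 20.5%, and within 250 bp 73.8%, 65.8%, 64.3%, 29.2% and 9.52%. With every region set to 200 bp, Z4 was at 50.5%, ROW at 20.5%, HP1c at 22.3% and none at 15.3%. With the other lists cut to the 2711 widest, Dsk2 was at 46.2%, Z4 at 35.9%, ROW at 25.5% and none at 33.3%. In these last settings HP1c exceeded ROW (25.7% with the cut lists), and in the others the order was Dsk2, Z4, ROW, HP1c.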

Other observations

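Read from the other lists, WOC was found at nearly all wide Dsk2 regions and at 22.4% of all ROW regions. Of Dsk2 regions under 50 bp 53.2% overlapped WOC, against 97.5% at 200 to 400 bp, 99.7% at 400 to 800 bp and all 206 at 800 bp or more. For Z4 the share rose from 21.8% under 50 bp to 79.2% at 800 bp or more, and for ROW from 7.47% to 52.4%. HP1c regions differed in that the narrowest were not the lowest, with 56.1% under 50 bp, 55.2% at 50 to 100 bp, 46.1% at 100 to 200 bp, 63.4% at 200 to 400 bp, 85.8% at 400 to 800 bp and 94% of the 50 regions above.

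Outside the main arms, 47 WOC regions lay on the heterochromatic arms named Het and 41 on U and Uextra. The former had a median width of 318 bp, and 38 overlapped Z4, 36 Dsk2, 22 ROW and 9 HP1c. The latter had a median width of 190 bp, and 37 overlapped Z4, 22 Dsk2, 14 HP1c and 9 ROW. WOC had no region on the mitochondrial genome.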
